A study of Mus musculus with 12 samples.

Results

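The genes described here are 38 genes of glucose breakdown and of the response to low oxygen, taken by name from a table of 41709 genes measured by RNA sequencing in mouse aortic valve leaflets. They comprise 4 genes of glucose entry, 13 of the glycolytic chain, 4 of lactate metabolism and export, 3 regulators of flux, and 14 of oxygen sensing and its targets. All 38 were found in the table, 37 under their own name. Aldoa was split over a pair of rows, of which the second held no counts, and the row with identifier ENSMUSG00000030695 was used. Of the 38, 27 had enough counts to be tested, among 6296 genes tested in all. The 11 that were not tested were Slc2a3, Hk2, Pfkm, Aldoc, Eno2, Slc16a1, Pdk1, Pfkfb4, Adm, Car9 and Ankrd37.

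The 12 libraries came from mice of the strain C57BL/6J;129SvEv that were 2 months old, 3 for each of the genotype codes CTRL, ECKO, SMKO and DKO. The labels do not name the deleted gene, which from general knowledge of the study is Efemp2. It encodes fibulin-4, a glycoprotein of elastic fibres. ECKO stands for its deletion in endothelium, SMKO for deletion in smooth muscle, and DKO for the combined deletion. Neither the Cre drivers nor the alleles of CTRL mice are given in the sources used. Whole leaflets were cut by laser from fixed, frozen and stained sections, so each library averages over all cell types of a leaflet. A lower value can come from fewer cells of a type or from less RNA per cell, and these cannot be told apart here. The series text calls the libraries biological triplicates but assigns no animal to a library, so p-values measure the spread between these samples.

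Glycolysis splits glucose into pyruvate in the cytosol and yields ATP without oxygen, and lactate dehydrogenase then turns pyruvate into lactate. When oxygen is low, the prolyl hydroxylases no longer mark the alpha subunits of hypoxia-inducible factor (HIF) for destruction, and the stabilised factor switches on genes that include most glycolytic enzymes and the vessel growth factor Vegfa. Valve leaflets are thin and largely without vessels, so oxygen reaches them mainly by diffusion.

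Library totals ran from 74827 to 615665 counts. CTRL 3 and SMKO 3 were the shallowest libraries, and together with SMKO 2 they had the highest share of mitochondrially encoded counts, in a range of 10.5% to 28.5% over all libraries. Efemp2 had 58, 23 and 9 counts in CTRL 1 to 3. ECKO libraries had 3, 15 and 8 counts of it, SMKO libraries 4, 0 and 0, and all DKO libraries 0. All 7 markers of interstitial cells, the main cell of the leaflet, had counts, and their sum was 17920 to 36580 CPM of the library total. The 38 genes together took 0.306% of counts in SMKO 3, 0.325% in CTRL 3 and 0.373% to 0.467% in the other libraries. For a gene with a few counts in the shallow libraries, intervals and floors cover counting error only.

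On the deposited per-length scale (TPM), which allows levels of different genes to be set beside each other, glycolytic enzymes were the most abundant of the 38 genes. Aldoa, the muscle-type aldolase that cleaves fructose bisphosphate, had the highest mean, 487 TPM, with 307 to 604 over the 12 libraries. Pgam1, the phosphoglycerate mutase, followed with 217 TPM and a range of 57.3 to 313. Gapdh, the dehydrogenase that makes the first high-energy phosphate, had 206 TPM and Ldha, the lactate dehydrogenase A chain, 196 TPM. Pkm, the pyruvate kinase that makes pyruvate and ATP, had 189 TPM. The ranges of these 4 overlapped, so their order is not fixed by the data. Epas1, the HIF-2 alpha subunit, was the most abundant of the oxygen-response genes at 136 TPM.

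**Figure D1:**
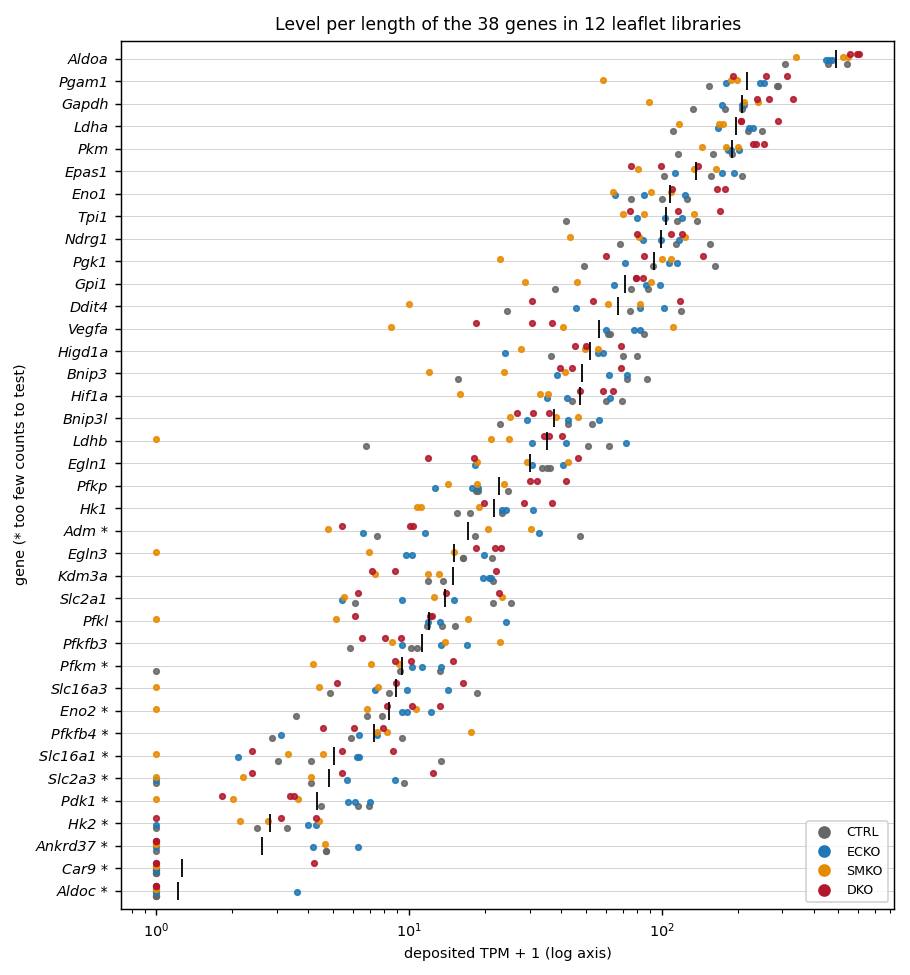
Deposited TPM plus 1 (log axis) of all 38 genes, ordered by mean. Each point is 1 library coloured by genotype, the black bar is the mean of 12 libraries, and an asterisk marks the 11 genes with too few counts to test. Aldoa lies highest, with a mean of 487 TPM, and Car9 and Aldoc lie lowest, with 1 count each in all libraries.

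Within most enzyme families a single isozyme held most of the transcript, in shares of the family's summed TPM. Hk1, the housekeeping hexokinase that traps glucose in the cell, held a median of 90.3% of the Hk1 and Hk2 sum, with a range of 74.1% to 100% over libraries. Eno1, the ubiquitous enolase, held 92.6% against Eno2, the neuronal form. Aldoa held at least 99.5% against Aldoc in every library. Lactate dehydrogenase was mostly the A chain, with Ldha at a median of 85.4% and Ldhb at 14.6%. Phosphofructokinase, the committed step of the pathway, was the most mixed: Pfkp held a median of 51.9%, Pfkl 26.2% and Pfkm 22.1%. Pfkp's share was 63.8% ± 6.06 (SD, n = 3) in DKO and 50.7% ± 3.88 in CTRL, a difference given here without a test. It was 37.7% ± 10.3 in ECKO and 61.7% ± 22.9 in SMKO. SMKO 2 at 75.7% and SMKO 3 at 74.2% were above every DKO library. Of the HIF alpha subunits, Epas1 held 72.6% ± 2.43 in CTRL and 64.3% ± 6.82 in DKO, with Hif1a making up the rest.

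Several classical hypoxia targets had too few counts to test, and of these Car9 and Ankrd37 were at or near the detection limit. Car9, the carbonic anhydrase used as a hypoxia marker, had 1 count in all 12 libraries, in DKO. In CTRL its count of 0 allowed up to 2.31 CPM (3 counts over the pooled total). Ankrd37, an ankyrin repeat target of HIF-1, had 5 counts and Hk2, the inducible hexokinase, had 26. Pdk1, the kinase that shuts off pyruvate dehydrogenase, had 14.6 CPM over the pooled libraries in CTRL (95% Poisson interval 8.81 to 22.9) and 5.19 in DKO (1.69 to 12.1). Its pooled values were 15.0 in ECKO and 5.76 in SMKO. Adm, the vasodilator peptide adrenomedullin, had 20.8 CPM over the pooled libraries in CTRL (13.7 to 30.3) and 6.23 in DKO (2.29 to 13.6), and CTRL 1 alone held 19 of its 59 counts. Pooled Adm was 12.5 CPM in ECKO and 12.7 in SMKO. When all genes with a count were tested with no filter, neither Pdk1 nor Adm passed the adjusted threshold in any comparison.

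Promoter windows were read to show where HIF-type motifs lie in the genes that the comparisons below turn on. HIF binds a short core written ACGTG or GCGTG, and CACGTG, which holds ACGTG on both strands, is also the site of other helix-loop-helix factors. RefSeq windows (GRCm38.p6, a different build from the deposited table's) were matched for 34 of the 38 genes, and not for Slc2a3, Epas1, Bnip3l and Ndrg1. Where RefSeq lists several starts (3 for Eno1, and 2 each for Ldha and Vegfa) the first listed was used and the others were not searched. In the 250 bases before it, with both strands searched, 16 of 34 held ACGTG or its complement CACGT, against 16.6% of 27025 windows in all. GCGTG or its complement CACGC lay in 18 of 34 windows against 28.2% of all, and either core in 27 of 34 against 38.6%. CACGTG lay in 5 of 34 windows against 6.05% of all. A match is a description of letters and not a site or a cause. The 5 windows below are those of the 3 genes that were higher in DKO at an unadjusted p under 0.05 against CTRL and against ECKO, of Ldha, whose window holds the most ACGTG-type matches, and of Vegfa, which lay lowest. They are printed 5′ to 3′ on the gene's strand, with matches in capitals.
Pfkp: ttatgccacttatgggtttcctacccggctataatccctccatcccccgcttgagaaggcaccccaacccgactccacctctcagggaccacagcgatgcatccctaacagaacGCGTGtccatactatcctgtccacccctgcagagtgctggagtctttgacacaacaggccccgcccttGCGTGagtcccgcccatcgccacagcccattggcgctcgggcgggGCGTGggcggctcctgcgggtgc
Gapdh: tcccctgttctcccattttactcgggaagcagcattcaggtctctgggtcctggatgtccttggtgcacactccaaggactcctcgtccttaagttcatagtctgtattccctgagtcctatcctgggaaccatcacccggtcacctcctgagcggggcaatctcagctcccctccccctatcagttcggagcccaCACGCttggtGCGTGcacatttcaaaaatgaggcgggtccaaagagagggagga
Eno1: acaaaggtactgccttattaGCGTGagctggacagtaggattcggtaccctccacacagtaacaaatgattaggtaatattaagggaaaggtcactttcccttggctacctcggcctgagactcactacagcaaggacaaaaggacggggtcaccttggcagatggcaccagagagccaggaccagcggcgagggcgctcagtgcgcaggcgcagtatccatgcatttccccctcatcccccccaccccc
Ldha: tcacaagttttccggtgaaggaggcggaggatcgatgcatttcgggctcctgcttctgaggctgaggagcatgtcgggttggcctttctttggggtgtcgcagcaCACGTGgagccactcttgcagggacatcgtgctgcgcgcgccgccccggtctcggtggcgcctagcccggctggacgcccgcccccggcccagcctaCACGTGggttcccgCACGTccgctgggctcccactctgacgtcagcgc
Vegfa: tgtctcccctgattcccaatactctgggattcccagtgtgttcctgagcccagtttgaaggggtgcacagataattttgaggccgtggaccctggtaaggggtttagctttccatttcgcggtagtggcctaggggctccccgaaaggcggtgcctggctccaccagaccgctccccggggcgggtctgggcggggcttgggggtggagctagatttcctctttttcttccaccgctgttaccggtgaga
The Pfkp window (chr13:6648772-6649021, minus strand) holds GCGTG in 3 places, and the Gapdh window (chr6:125165774-125166023, minus strand) in 2, of which 1 reads CACGC. Eno1 (chr4:150236458-150236707, plus strand) holds it in 1 place, near the far end of the window. Ldha (chr7:46845554-46845803, plus strand) has 5 matches to ACGTG or CACGT, of which 4 fall in its CACGTG copies. In Vegfa (chr17:46032378-46032627, minus strand) neither core occurs in these letters. Neither core occurs in the windows of Hk1, Pkm, Aldoa and Gpi1 either, which, like Pfkp, Gapdh, Eno1 and Ldha, were higher in DKO below. Bnip3 and Pgam1, whose DKO and CTRL values overlapped, hold both cores. Their windows have 2 and 1 ACGTG-type matches and 3 and 2 GCGTG-type matches. Of the printed windows, those of Pfkp, Gapdh, Eno1 and Ldha hold a core and that of Vegfa does not, and the other windows named here were not printed. Whether a core goes with the direction of a difference was not tested.

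The first comparison asked how leaflets lacking the gene in both cell types differed from control leaflets. None of the 27 genes passed an adjusted p of 0.05 in DKO against CTRL, where 0.492% of all tested genes did (edgeR's quasi-likelihood test, Benjamini-Hochberg adjustment over 6296 genes). At an unadjusted p under 0.05 there were 7 of 27, against 11.7% of all tested genes. Of these, 6 were higher in DKO (6.56% of all) and 1 was lower (5.15% of all). The count was 4 of 25 without CTRL 2 (8.92% of all) and 4 of 28 without DKO 3 (9.08% of all). In 8 of 27 every DKO library lay above every CTRL library, which held for 9.74% of all tested genes, and in 2 of 27 every DKO library lay below, against 8.04%. The 8 were Eno1, Pkm, Hk1, Pfkp, Gapdh, Aldoa, Gpi1 and Ldha, all enzymes of glucose breakdown, and the 2 were Vegfa and Epas1. Separations of libraries, here and below, are in TMM-scaled CPM unless TPM is named. In deposited TPM, DKO and CTRL overlapped for Eno1, Hk1, Gpi1, Ldha and Epas1. They did not overlap in TPM for Pkm, Pfkp, Gapdh, Aldoa and Vegfa. DESeq2 and limma-voom without library weights also called none of the 27, here and in every other comparison run. The estimates that follow describe these libraries and are not calls.

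Hk1, the first enzyme of the pathway, had 63.9, 49.6 and 79.5 TMM-scaled CPM in CTRL 1 to 3 and 88.0, 113 and 124 in DKO 1 to 3. All DKO libraries were above all CTRL libraries, by a log2 fold change of 0.85 ± 0.28 (SE; adjusted p = 0.200). ECKO libraries had 98.6, 76.5 and 93.9 CPM and SMKO libraries 60.3, 66.2 and 44.3, so every ECKO and DKO library but ECKO 2 was above every CTRL and SMKO library. Gpi1, the isomerase of the next step, had 117, 106 and 95.4 CPM in CTRL and 171, 124 and 164 in DKO. Its difference was 0.47 ± 0.26 on the log2 scale (adjusted p = 0.509). In ECKO it had 132, 133 and 143 CPM, also above CTRL, and in SMKO 141, 138 and 59.1.

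Pfkp, the platelet-type phosphofructokinase, had the largest positive log2 estimate of the 27 genes in DKO against CTRL. It had 49.9, 39.7 and 71.6 CPM in CTRL and 54.8, 43.7 and 27.2 in ECKO, with 32.9, 110.4 and 59.1 in SMKO and 108, 95.9 and 97.6 in DKO. DKO libraries lay close together and above all CTRL and ECKO libraries, while SMKO 2 reached the DKO level and the other SMKO libraries did not. The log2 fold change was 1.02 ± 0.35 against CTRL (adjusted p = 0.206). A gene on the other strand, Pitrm1, overlaps Pfkp in exons and had 35 counts in all against 245 for Pfkp, and the libraries do not keep strand.

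Aldoa had 473, 597 and 620.2 CPM in CTRL and 762, 539 and 529 in ECKO, with 641, 1308 and 561 in SMKO and 953, 699 and 976 in DKO. DKO lay above CTRL in every library and overlapped ECKO, and SMKO 2 was the highest of the 12. The log2 fold change was 0.64 ± 0.30 (adjusted p = 0.405). Tpi1, the isomerase that joins the arms of the pathway, had 111, 97.6 and 63.6 CPM in CTRL and 97.8, 151 and 146 in DKO, and these overlapped, with a log2 fold change of 0.47 ± 0.27 (adjusted p = 0.521). Its ECKO libraries had 98.6, 95.3 and 106 CPM and its SMKO libraries 126, 155 and 88.6, which overlapped DKO. Spsb2, on the other strand, overlaps Tpi1 in exons and had 61 counts against 487.

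In the lower part of the pathway, Gapdh, Eno1 and Pkm had higher TMM-scaled CPM in every DKO library than in any CTRL library. Gapdh had 175, 159 and 215 CPM in CTRL and 328, 247 and 439 in DKO, a log2 fold change of 0.91 ± 0.31 (adjusted p = 0.216). Its other groups were 225, 203 and 195 CPM in ECKO and 210.0, 464 and 118 in SMKO, where SMKO 2 was the highest of the 12 libraries. Gapdh counts are uncertain, since 41 other genes share at least 95% identity with it over 300 or more bases. Of these, 2 were in the table, with 16 counts against 974 for Gapdh, and Iffo1 on the other strand overlaps it with 141 counts.

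Eno1 had 165, 139 and 191 CPM in CTRL and 132, 128 and 178 in ECKO, with 168, 270.5 and 133 in SMKO and 235, 260.0 and 342 in DKO. Its near copy Eno1b had 29 counts against 789. In TMM-scaled CPM DKO was above every CTRL and ECKO library, and SMKO 2 lay within the DKO range. In deposited TPM DKO overlapped both groups, with DKO 1 at 108, CTRL 1 at 125 and ECKO 3 at 123. The log2 fold change against CTRL was 0.79 ± 0.26, with the smallest p of the 27 genes (adjusted p = 0.194). Pkm had 278, 351 and 389.6 CPM in CTRL and 504, 369 and 385 in ECKO, with 409, 712 and 399 in SMKO and 655, 488 and 648 in DKO. In TMM-scaled CPM every SMKO and DKO library was above every CTRL library. In deposited TPM this held for DKO, while SMKO, at 199, 178 and 144, overlapped CTRL, at 159, 189 and 115. The DKO estimate was 0.82 ± 0.27 on the log2 scale (adjusted p = 0.198).

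Pgam1 had 231, 246 and 239 CPM in CTRL and 225, 237 and 217 in ECKO, with 188, 348 and 73.9 in SMKO and 342, 281 and 244 in DKO. DKO overlapped CTRL and lay above ECKO, with a log2 fold change of 0.27 against CTRL. Ldha, which makes lactate, had 262, 316 and 254 CPM in CTRL and 307, 306 and 301 in ECKO, with 236, 475 and 222 in SMKO and 401, 382 and 386 in DKO. On this scale its DKO libraries were tightly grouped and above all CTRL and ECKO libraries. The log2 fold change against CTRL was 0.48 ± 0.27 (adjusted p = 0.510). In deposited TPM the DKO libraries had 204, 288 and 204, which overlapped CTRL and ECKO.

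Ldhb, the chain that favours the reverse reaction, was at low levels, with 35.9, 46.3 and 7.95 CPM in CTRL and 39.1, 27.7 and 44.4 in DKO. ECKO had 32.9, 59.3 and 32.1 CPM and SMKO 20.1, 33.1 and 0, and all 4 groups overlapped. Slc2a1, the basal glucose transporter, had 39.0, 34.7 and 15.9 CPM in CTRL and 34.2, 38.4 and 13.3 in DKO, which overlapped. The remaining tested genes of this arm overlapped between DKO and CTRL too: Pgk1, the phosphoglycerate kinase, ranged from 29.5 to 193 CPM over the 12 libraries, Pfkl from 0 to 47.7, and the lactate exporter Slc16a3 from 0 to 43.8.

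Among the 13 tested enzymes of glycolysis and lactate, 11 had an estimate above 0 in DKO against CTRL, with a median of 0.48, and among the 11 tested oxygen-response genes 5 did, with a median of -0.054. Over all 6296 tested genes the median was 0.018, and 51.7% lay above 0. These counts and medians cover only genes that passed the count filter and carry no test. Scaling by library totals alone would shift the median of all genes to -0.15, and 5 of the 27 genes then had an unadjusted p under 0.05.

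**Figure D2:**
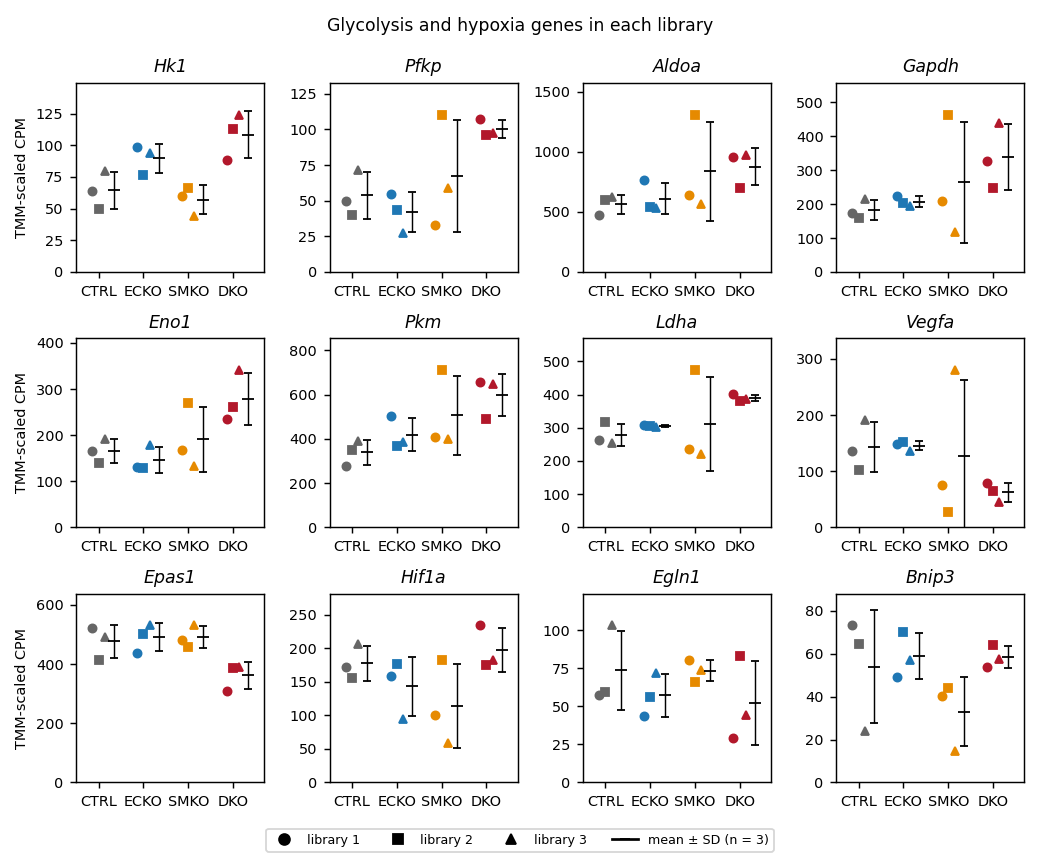
TMM-scaled CPM of 12 genes in each library, by genotype. Symbols stand for library 1, 2 and 3, and the black bar is the mean ± SD (n = 3, cut at 0). DKO libraries of Eno1, Pfkp and Gapdh lie above all CTRL and ECKO libraries, those of Vegfa and Epas1 lie below, and SMKO 2 and SMKO 3 spread widely.

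Of the oxygen-response genes, Vegfa had the largest estimate in DKO against CTRL. Its libraries had 136, 103 and 191 CPM in CTRL and 148, 151 and 136 in ECKO, with 74.9, 27.6 and 281 in SMKO and 78.2, 63.9 and 44.4 in DKO. All DKO libraries were below all CTRL and ECKO libraries, while the SMKO libraries included both the lowest and the highest value of the 12. The log2 fold change was -1.11 ± 0.48 against CTRL (adjusted p = 0.385), and with no count filter it was -1.12 (adjusted p = 0.0481; 0.952% of all genes then passed), in a range of adjusted p from 0.0481 to 0.646 over settings. SMKO 3, the library with the highest Vegfa, was also the shallowest, and its value rested on 19 counts, and that of SMKO 2 on 5.

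Epas1 had 522, 414 and 493 CPM in CTRL and 438, 503 and 531 in ECKO, with 482, 458 and 532 in SMKO and 308, 386 and 391 in DKO. In TMM-scaled CPM DKO was below every library of the other groups, with a log2 fold change against CTRL of -0.39 ± 0.25 (adjusted p = 0.579). In deposited TPM the groups overlapped, at 74.6, 138 and 98.3 in DKO. The lowest TPM values of the other groups were 101 in CTRL 3, 112 in ECKO 1 and 79.5 in SMKO 2. Epas1 is known for its expression in endothelial cells, and the summed endothelial markers (9 genes) were 642 to 948 CPM of the library total in DKO, 920 to 1078 in CTRL, 1084 to 1599 in ECKO and 641 to 1497 in SMKO. The part of endothelial content in the Epas1 values was not tested. Hif1a, the HIF-1 alpha subunit, had 172, 155 and 207 CPM in CTRL and 159, 176 and 93.9 in ECKO, with 100.4, 182 and 59.1 in SMKO and 235, 175 and 182 in DKO. CTRL and DKO overlapped, with an estimate of 0.17.

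The prolyl hydroxylases, which mark HIF for destruction, overlapped between DKO and both CTRL and ECKO. Egln1 had 57.7, 59.5 and 103 CPM in CTRL and 43.8, 56.2 and 71.7 in ECKO, with 80.4, 66.2 and 73.9 in SMKO and 29.3, 83.1 and 44.4 in DKO. The direction of its difference between DKO and CTRL, -0.20 on the log2 scale, rested on DKO 1 and was 0.021 without it. Egln3, itself a HIF target, had 18.7, 19.8 and 47.7 CPM in CTRL and 16.4, 26.5 and 12.4 in ECKO, with 20.1, 16.6 and 0 in SMKO and 44.0, 23.4 and 39.9 in DKO, with an estimate of 0.52 in DKO against CTRL.

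The mitophagy receptor Bnip3 had 73.3, 64.5 and 23.9 CPM in CTRL and 49.3, 70.3 and 56.8 in ECKO, with 40.2, 44.2 and 14.8 in SMKO and 53.8, 63.9 and 57.7 in DKO. Its lowest values were in SMKO 3 and CTRL 3, the shallowest libraries. Higd1a, a hypoxia-induced mitochondrial protein, had 96.7, 116 and 95.4 CPM in CTRL and 49.3, 92.1 and 84.0 in ECKO, with 89.5, 155 and 59.1 in SMKO and 112, 104 and 97.6 in DKO. DKO lay above ECKO and overlapped CTRL. Kdm3a, a histone demethylase induced by HIF, had 25.0, 49.6 and 55.7 CPM in CTRL and 65.8, 53.1 and 49.4 in ECKO, with 29.2, 33.1 and 44.3 in SMKO and 29.3, 53.3 and 22.2 in DKO, and only SMKO and ECKO were apart. Bnip3l, a receptor of the same kind, ranged from 57.5 to 91.4 CPM, the differentiation gene Ndrg1 from 103 to 298, and Ddit4, an inhibitor of mTORC1, from 16.6 to 183.

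DKO against ECKO shares its DKO libraries with the comparison above, so its values are set beside those and are not a second observation. None of the 27 genes passed, where 0.572% of all tested genes did. Unadjusted p was under 0.05 for Pfkp, Eno1, Gapdh and Vegfa, 4 of 27 against 10.8% of all tested genes. The count was 7 of 28 without SMKO 2 and 2 of 25 without ECKO 2 (7.79% of all). In 6 of 27 DKO was above ECKO in every library (9.90% of all) and in 3 of 27 below (8.93%). Pfkp had a log2 fold change of 1.31 ± 0.36 (adjusted p = 0.0901) and Eno1 of 0.93 ± 0.26 (adjusted p = 0.0953), the closest to the threshold of the 27 genes in any pair. Gapdh had 0.70 ± 0.31 (adjusted p = 0.414), Pkm 0.51 ± 0.27 (adjusted p = 0.517) and Vegfa -1.22 ± 0.47 (adjusted p = 0.356). Melanocyte markers (6 genes, all with counts in every group) also separated these groups, at 57.8 to 116 CPM of the library total in ECKO and 365 to 803 in DKO, beside 169 to 781 in CTRL and 187 to 744 in SMKO. Endothelial markers separated them too, in the other direction, and the part of either list in these values was not tested.

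This count depended on the fit. With only the DKO and ECKO libraries in the model, 3 genes passed: Pfkp at 1.26 (adjusted p = 0.0141), Eno1 at 0.88 (adjusted p = 0.0250) and Vegfa at -1.26 (adjusted p = 0.00281), where 3.23% of all genes then tested passed. The same 3 passed without SMKO 2, although that library is in neither group. Leaving it out changed the shared fit and also the count filter, with 7627 genes tested in place of 6296, of which 1.98% passed. Over 25 alternative settings each, adjusted p ran from 0.0135 to 0.548 for Pfkp, from 0.0186 to 0.441 for Eno1 and from 0.00281 to 0.665 for Vegfa, and the sign of each was kept in every setting. Without CTRL 3, SMKO 2 and SMKO 3, a choice made after seeing the data, Gapdh, Pfkp and Pkm passed in DKO against CTRL, where 1.92% of all genes then tested did, with estimates of 0.98, 1.12 and 0.90 (adjusted p = 0.0220, 0.0489 and 0.0293). Over all settings their adjusted p reached 0.570, 0.569 and 0.514.

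**Figure D3:**
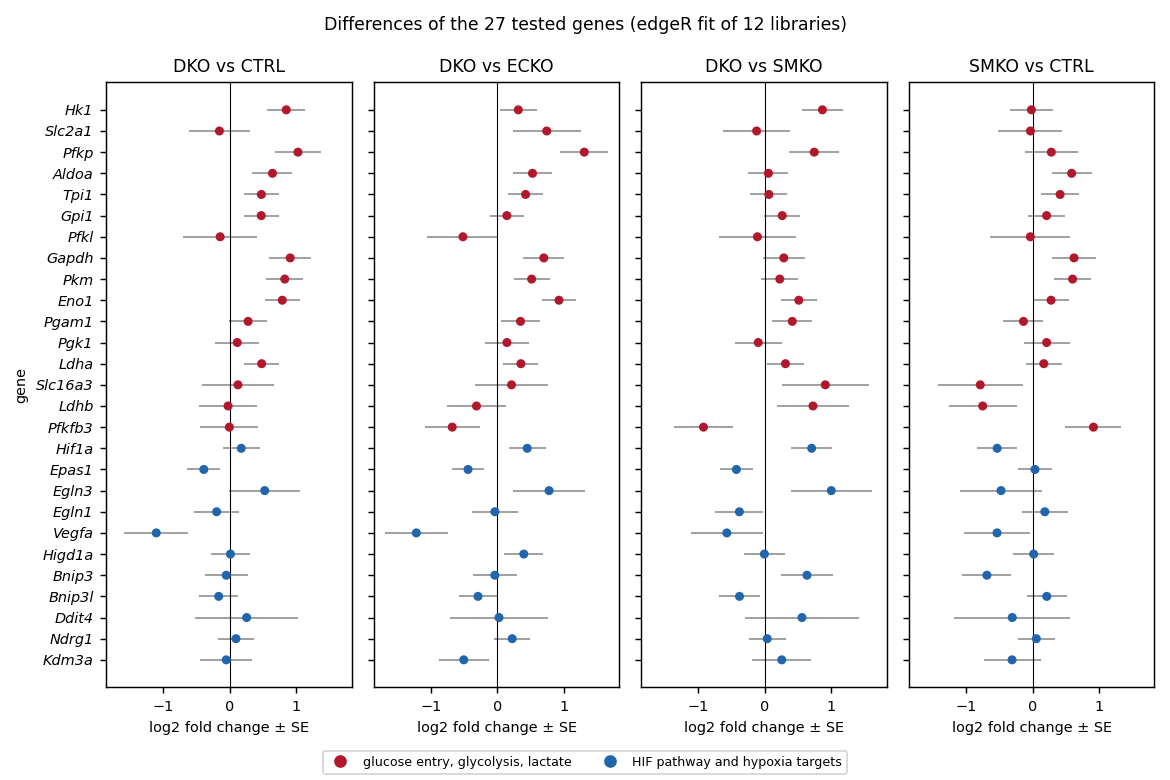
Log2 fold change ± SE of the 27 tested genes in 4 comparisons from a single edgeR fit of 12 libraries. Red points are genes of glucose entry, glycolysis and lactate, and blue points are genes of oxygen sensing and its targets. No point passed the adjusted threshold, and in DKO against CTRL 11 of 13 enzymes of glycolysis and lactate lie to the right of 0, with Pfkp at 1.02 and Vegfa at -1.11.

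DKO against SMKO gave no adjusted call among the 27 genes or among all tested genes (0%), by edgeR. Unadjusted p was under 0.05 for 3 of 27 genes, against 6.31% of all tested genes: Hk1 was higher in DKO by 0.86 ± 0.31 (adjusted p = 0.550), Hif1a by 0.70 ± 0.31 (adjusted p = 0.705) while Pfkfb3 was at -0.92 ± 0.45 (adjusted p = 0.775). DKO was above SMKO in every library for Hk1, Bnip3 and Egln3 and below for Pfkfb3, Epas1 and Bnip3l, 3 genes in each direction, against 5.69% and 3.84% of all tested genes. Without SMKO 2 the unadjusted count was 9 of 28 (11.6% of all), and without SMKO 3 it was 1 of 27 (5.86% of all). Smooth muscle markers (4 genes) also separated the groups, at 266 to 369 CPM of the library total in DKO and 133 to 255 in SMKO, and their part was not tested. Pfkp and Eno1 overlapped here, with estimates of 0.74 ± 0.38 and 0.51 ± 0.27, since SMKO 2 was as high as DKO in TMM-scaled CPM. In deposited TPM, SMKO 2 was below every DKO library for both. It had 22.8 TPM against 29.2 to 40.9 in DKO for Pfkp, and 89.6 against 108 to 178 for Eno1.

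Neither single deletion gave an adjusted call against CTRL, among the 27 genes or among all tested genes (0% in SMKO, 0% in ECKO). In SMKO, 2 of 27 genes had an unadjusted p under 0.05 (5.46% of all), Pfkfb3 at 0.92 ± 0.42 and Pkm at 0.60 ± 0.28 (adjusted p = 0.885 for both). These were the 2 above CTRL in every library in TMM-scaled CPM (4.24% of all), with 0 below (6.26% of all). In deposited TPM both genes overlapped between SMKO and CTRL. The unadjusted count was 0 without CTRL 1 or CTRL 2, 1 without ECKO 1, ECKO 2, DKO 1 or DKO 3, 4 of 27 without SMKO 3 and 5 of 25 without SMKO 1. Aldoa at 0.59 and Gapdh at 0.62 overlapped with CTRL, and without SMKO 2 the 2 estimates were 0.094 and 0.021, while that of Pkm was 0.25. Bnip3 was at -0.69 (adjusted p = 0.889). In ECKO, 0 of 27 genes had an unadjusted p under 0.05 by edgeR (4.29% of all), with 2 of 28 without CTRL 3 and 1 of 28 without DKO 3. In TMM-scaled CPM, ECKO lay above CTRL in every library for Pfkfb3, at 0.67, and Gpi1, at 0.33 (5.80% of all). It lay below for Higd1a, at -0.39 (5.89% of all). In deposited TPM each of these genes overlapped between ECKO and CTRL. Hk1 and Slc2a1 were at 0.53 and -0.90, with overlap, and Slc2a1 had 11.0, 15.6 and 24.7 CPM in ECKO and 42.0, 16.6 and 29.5 in SMKO.

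SMKO against ECKO, which separates the deleted cell types, also had no adjusted call in the 27 genes or in all genes (0%). Ldhb alone had an unadjusted p under 0.05, 1 of 27 against 3.86% of all, at -1.04 ± 0.50. That count was 0 without CTRL 1, CTRL 2, ECKO 2, DKO 1 or DKO 2, 2 of 28 without SMKO 2 and 3 of 27 without SMKO 3. SMKO lay below ECKO in every library for Kdm3a, at -0.76, Bnip3, at -0.67, and Hk1, at -0.55, 3 of 27 against 5.35% of all tested genes, and in no gene above (3.94% of all).

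Pfkfb3 makes fructose 2,6-bisphosphate, the activator of phosphofructokinase, and had the smallest p for an interaction, the DKO value set against the sum of the single deletions. It had 25.0, 24.8 and 23.9 CPM in CTRL and 32.9, 46.8 and 34.6 in ECKO, with 38.4, 44.2 and 88.6 in SMKO and 29.3, 23.4 and 22.2 in DKO. Each single deletion was above CTRL in all libraries and DKO overlapped CTRL. The interaction was -1.60 ± 0.59 on the log2 scale (adjusted p = 0.632), and 0.98 ± 0.41 for Hif1a (adjusted p = 0.747). Those were the 2 of 27 genes with an unadjusted p under 0.05, against 6.18% of all, and none passed adjusted (0.0318% of all). Unadjusted, the count was 6 of 28 without SMKO 2 (11% of all) and 1 without ECKO 2, ECKO 3, SMKO 1 or DKO 1.

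Averaged over the endothelial genotype, smooth muscle deletion gave 7 of 27 genes with an unadjusted p under 0.05 against 10.5% of all tested genes, and none adjusted (0.206% of all). They were Eno1 at 0.60 ± 0.19 (adjusted p = 0.183), Pfkp at 0.79, Gapdh at 0.66, Pkm at 0.56, Aldoa at 0.56, Tpi1 at 0.42 and Vegfa at -0.88. Without SMKO 2 the unadjusted count was 3 of 28, against 7.51% of all genes then tested. Averaged over the smooth muscle genotype, endothelial deletion gave Hk1 alone, at 0.70 ± 0.21 (adjusted p = 0.841), 1 of 27 against 4.97% of all, and none adjusted (0%). Hk1 was not alone without SMKO 2, when 6 of 28 genes had an unadjusted p under 0.05 (8.37% of all), or without DKO 2, when 2 of 25 did. An F test over the 4 groups gave 5 of 27 genes with an unadjusted p under 0.05, against 8.97% of all: Eno1, Pfkp, Hk1, Pkm and Gapdh, with adjusted p of 0.277, 0.277, 0.390, 0.500 and 0.506. None of the 27 passed it adjusted (0.302% of all). The unadjusted count was 10 of 28 without SMKO 2 (11.6% of all), 3 without CTRL 1, CTRL 2, ECKO 2, ECKO 3 or DKO 1, and 2 without DKO 3.

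The authors' deposited table gives its own comparisons for DKO, by a test that the sources used here do not name. In the authors' deposited table, 6 of the 38 genes had p under 0.05 in DKO against CTRL, compared with 6.94% of genes with a value. They were Hk1 (fold change 1.82), Pfkp (2.02), Gapdh (1.85), Eno1 (1.73), Pkm (1.76) and Vegfa (-2.20, a fall in the authors' deposited table). Against ECKO the authors' deposited table lists Pfkp (2.48), Gapdh (1.62), Eno1 (1.90) and Vegfa (-2.32), with 6.45% of all genes under 0.05. Against SMKO the authors' deposited table lists Hk1 (1.84), Pfkp (1.77) and Hif1a (1.65), with 4.27% of all genes. Whether those p-values were adjusted is not stated.

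Since depth differed up to several-fold between libraries, the slope of each gene's level on log2 library total was fitted within genotypes. Of the 27 genes 2 had an unadjusted p under 0.05 (8.07% of all tested genes) and none passed adjusted (0.0159% of all). Without CTRL 3 the unadjusted count was 0, and without SMKO 1 or SMKO 2 it was 4. Vegfa had a slope of -0.42 ± 0.16 on the log2 scale for each doubling of depth (adjusted p = 0.516) and Bnip3 of 0.45 ± 0.19 (adjusted p = 0.552). Ldhb followed at 0.49 ± 0.28 and Pfkp at -0.30 ± 0.18. The DKO libraries lay in the middle of the depth range, with 247718, 455478 and 260449 counts.

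**Figure D4:**
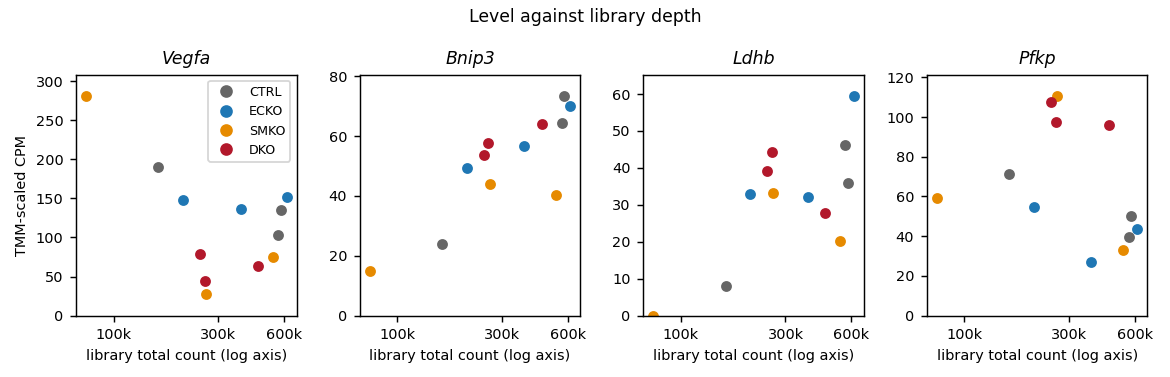
TMM-scaled CPM against library total (log axis) for Vegfa, Bnip3, Ldhb and Pfkp, 1 point per library, coloured by genotype. The shallowest library, SMKO 3 with 74827 counts, has the highest Vegfa (281 CPM), the lowest Bnip3 (14.8 CPM) and no Ldhb count, and the DKO libraries of Vegfa lie below CTRL and ECKO libraries of greater and of smaller depth.

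In TMM-scaled CPM, SMKO 2 was the highest of the 12 libraries for Aldoa, Gapdh, Pkm, Ldha, Pgam1, Pgk1, Tpi1, Pfkp and Higd1a, and the lowest for Vegfa. Its TMM factor, 0.723, was also the lowest of the 12. In deposited TPM, SMKO 2 was the highest for none of these genes and still the lowest for Vegfa. It also had the highest summed macrophage markers (9 genes), 2967 CPM of the library total, against 1728 in SMKO 1 and 909 in SMKO 3. Macrophage markers summed to 1038 to 1345 in CTRL, 942 to 1488 in ECKO and 962 to 1909 in DKO, where DKO 1 and DKO 3 were above every CTRL library and DKO 2 was below. All 9 macrophage markers had counts in every group, and the part of macrophage content in the glycolytic values was not tested. Red blood cell markers (5 genes) summed to 38.5 to 6190 in ECKO and 110 to 396 in DKO, and heart muscle markers (9 genes) to 861 in ECKO 2 and at most 107 elsewhere; their part was not tested either.

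Neighbouring pathways were read from 6 lists of 82 genes in all, of which 38 were tested, and no gene of any list passed the adjusted threshold in any comparison. In the pentose phosphate branch, which leaves glycolysis at glucose 6-phosphate, 5 of 7 genes were tested and 4 had estimates above 0 in DKO against CTRL. Taldo1, the transaldolase, had 31.2, 26.5 and 7.95 CPM in CTRL and 78.2, 68.2 and 44.4 in DKO, a log2 fold change of 1.28 ± 0.37 (adjusted p = 0.118). Pgd, which makes NADPH, was at 0.88 ± 0.39 (adjusted p = 0.358) and Pgls at 0.71 ± 0.41 (adjusted p = 0.526). Bsg, the chaperone of lactate transporters, was at 0.73 ± 0.26 (adjusted p = 0.223), in a transport list with 3 of 10 tested. Its other tested genes were Slc2a10 at 0.50 ± 0.36 (adjusted p = 0.636) and Slc16a7 at -0.14 ± 0.46 (adjusted p = 0.954).

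Of 7 tested genes for pyruvate entry into mitochondria, of 12, Pdhb, a pyruvate dehydrogenase subunit, was at 0.84 ± 0.35 (adjusted p = 0.313). The pyruvate carrier Mpc2 was at -0.46 ± 0.39 (adjusted p = 0.714) and Pdp1 at -0.43 ± 0.51 (adjusted p = 0.828). In the oxygen sensing machinery 9 of 13 were tested, 3 of them above 0. Egln2, a further prolyl hydroxylase, was at 0.71 ± 0.32 and Cited2, which competes with HIF for its coactivators, at -1.17 ± 0.53 (adjusted p = 0.385 and 0.381). Crebbp was at -0.50 ± 0.28 (adjusted p = 0.510). Of 24 other hypoxia targets 13 were tested, 8 of them above 0. Unadjusted p was under 0.05 for 5 of the 13, against 11.7% of all tested genes. Pdgfb, a growth factor for mural cells, had 2, 4 and 0 counts in CTRL and 9, 26 and 5 in DKO, with 14 in SMKO 2, and its log2 estimate of 3.19 ± 0.84 (adjusted p = 0.0727) rests on these few counts. The collagen modifiers Plod2 and Lox were at 0.76 ± 0.27 and 0.98 ± 0.47 (adjusted p = 0.223 and 0.408). Of 16 other glycolysis genes only Bpgm, which makes 2,3-bisphosphoglycerate, had enough counts, at 0.69 ± 0.49 (adjusted p = 0.634).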

How the data were processed

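RNA of 12 libraries was analysed from 1 table. Per the file headers the authors deposited total counts and TPM for each gene and library, and a fold change and p-value for DKO against each other group. Per the submitters' processing notes the build was GRCm39; aligner, counter, annotation and strand setting were not given in the sources used here. Per the labels' protocols, cDNA was amplified and tagmented with Nextera XT, which does not mark strand. The deposited counts were scaled by TMM, filtered with filterByExpr (count of 10, 3 libraries) and tested with edgeR 4.0.16 (R 4.3.3) by the quasi-likelihood F test in 1 fit of all libraries (8 residual degrees of freedom, common biological coefficient of variation 0.246). P-values were adjusted by Benjamini-Hochberg over all 6296 tested genes. Each SE was obtained by dividing the size of the log2 estimate by the root of its F value. CPM of the library total, used for marker sums and pooled values, has no TMM factor. Deposited TPM was used for levels between genes, with no test. The script was tested on simulated data. The genes and lists were chosen with earlier results of these data known. Genes given with every library's value were the 5 with the smallest p in each pair (10 in DKO against CTRL), the 3 highest in TPM, and the HIF subunits and prolyl hydroxylases; neighbouring genes were those with the smallest p over the 4 groups. Exon overlaps and near copies were read from GENCODE vM21 and promoter letters from RefSeq, both on GRCm38. Alternatives used DESeq2 1.42.0, limma 3.58.1 and the settings in the closing section. Replicates of a group differed by more than counting noise (chi-square per degree of freedom 1.85 to 9.65), so none were merged for the tests. The pooled values of Car9, Pdk1 and Adm sum the libraries of a group. Their floors and Poisson intervals leave out this spread between libraries and are too narrow as intervals for a group.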

Additional observations from a re-analysis of the deposited data

How the results depend on the processing

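The main analysis called 0 of the 27 genes in each comparison. Testing all genes with a count called 1 gene in DKO against CTRL, in the averaged smooth muscle contrast and in the 4-group test (Vegfa in each) and 2 in DKO against ECKO (Pfkp and Vegfa). In DKO against ECKO, limma-voom with library weights called 1 (Pfkp), leaving out CTRL 3 and SMKO 3 called 1 (Vegfa), and the pair alone called 3 (Eno1, Pfkp and Vegfa). Leaving out CTRL 3 and SMKO 3 also called 1 (Vegfa) in the averaged smooth muscle contrast. Leaving out CTRL 3, SMKO 2 and SMKO 3, chosen after seeing the data, called 3 in DKO against CTRL (Gapdh, Pfkp and Pkm), 3 in DKO against ECKO and 3 in the 4-group test (Eno1, Pfkp and Vegfa in both), when more genes entered the test (8976). Leaving out 1 library in turn gave 0 to 3 calls in DKO against ECKO (Pfkp without SMKO 1; Eno1, Pfkp and Vegfa without SMKO 2; Vegfa without SMKO 3), 0 to 1 in the averaged smooth muscle contrast (Pfkp without SMKO 1, Vegfa without SMKO 3) and in the 4-group test (Pfkp without SMKO 2, Vegfa without SMKO 3), and 0 in the other comparisons. The cause of these shifts was not tested. Calls over all genes ranged over the settings from 4 to 172 in DKO against CTRL (main 31), 0 to 194 in DKO against ECKO (main 36), 5 to 149 in the averaged smooth muscle contrast (main 13) and 3 to 218 in the 4-group test (main 19). They reached 128 in DKO against SMKO without SMKO 2 (main 0) and 90 for the depth slope with library totals alone (main 1), 62 for the interaction without SMKO 2 (main 2), 51 for averaged endothelial deletion without CTRL 3, SMKO 2 and SMKO 3 (main 0), and, with no filter, 15, 8 and 16 in ECKO against CTRL, SMKO against CTRL and SMKO against ECKO (main 0). Egln1 in DKO against CTRL turned from -0.20 to 0.021 without DKO 1 (range -0.83 to 0.021 with each library left out in turn), and of the 40 pairwise estimates recomputed no other changed sign. Interactions, averaged effects, depth slopes and neighbouring genes were recomputed only as counts of calls or not at all. Isozyme shares were not recomputed from CPM. With the replicate number as a block, 0 of the 27 genes were called in each comparison and calls over all genes went from 31 to 49 in DKO against CTRL and from 36 to 50 in DKO against ECKO. Same-numbered libraries of different groups had r from -0.14 to 0.18 over 18 pairs, with a median of 0.078. The median was -0.037 over 36 pairs with different numbers, and 8 of 12 libraries correlated best with their own number. The series text assigns no animal to a library, and the numbers were not taken as pairs in the main fit. Whether libraries of a number share an effect was not tested further.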
